A study of Mus musculus with 8 samples.

Results

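The regions described here are squares of brain tissue with an intermediate density of proliferation transcripts in mice treated with CpG-STAT3ASO. Each section was divided into square bins of 360 pixels, and a bin counted as tissue when it held at least 20 molecules of panel genes. A bin was called intermediate when it held 10 to 99 molecules of Mki67 and Birc5 together, low-proliferation below that and dense with 100 or more. In the 4 sections given CpG-STAT3ASO, alone or with anti-PD1, 2655 of 9122 tissue bins were intermediate, out of 18080 tissue bins in the whole series. The same class held 952 bins in the 4 sections without CpG-STAT3ASO. Mki67 and Birc5 chose the bins, so their levels are given as a description and were not tested.

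The study implanted cells of the mouse glioma line GL261 into mouse brains. The mice were then treated 4 times inside the skull, with CpG-STAT3ASO, with CpG-STAT3ASO and anti-PD1 together (called the combination), with PBS or with anti-PD1 alone, and brains were taken at day 21. Each treatment is represented by 2 sections of the tumor-bearing hemisphere, in which single molecules of 100 transcripts were located by Resolve fluorescence in situ hybridization. The labels do not say that the sections of a treatment come from separate animals, so every p below measures the spread between these sections, which may be technical. Strain, sex, age and doses were not given in the sources used here.

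CpG-STAT3ASO joins a CpG oligonucleotide, a ligand of the endosomal receptor TLR9 of myeloid and B cells, to an antisense oligonucleotide against Stat3, a transcription factor that restrains antitumor inflammation in many myeloid cells. Anti-PD1 blocks an inhibitory receptor of T cells. Mki67 encodes Ki-67, present in cycling cells of any type, and Birc5 encodes survivin, which is needed in mitosis. Neither gene separates dividing glioma cells from dividing macrophages, microglia or lymphocytes, and all of these can occur in a treated glioma. The panel holds further genes that bear on this, among them the macrophage genes Adgre1 (F4/80) and Cd68, the T cell genes Cd3d and Cd8a, the pan-leukocyte gene Ptprc (CD45), and Gpnmb, a transmembrane glycoprotein made by glioma cells and by some macrophages. No neuronal, oligodendrocyte or astrocyte marker of the lists used here is on the panel.

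The intermediate bins of a section held 347909 to 2151570 gene molecules with CpG-STAT3ASO and 156772 to 337318 without. Codes read as false positives made up 0.105 to 0.234% of the molecules of the class in the sections given CpG-STAT3ASO and 0.172 to 0.221% in the others. Levels below are CPM, the molecules of a gene in the class, divided by all gene molecules of the class in that section and scaled to a total of 1e+06. A lower number of cells and less RNA per cell cannot be told apart in such sums. Bins of a section are not replicates, and all comparisons between treatments used the 8 sections.

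With CpG-STAT3ASO there were 622 and 594 intermediate bins, with the combination 335 and 1104, against 334 and 220 with PBS and 220 and 178 with anti-PD1. Among tissue bins, their share was 26.6 and 27% with CpG-STAT3ASO, 15.4 and 45.9% under the combination, 15 and 10.2% with PBS, and 9.89 and 7.55% with anti-PD1. The ranges of the sections with and without CpG-STAT3ASO did not overlap, though combination replicate 1 and PBS replicate 1 were close. Combination replicate 2 alone contributed 1104 of the 2655 bins, and for that reason every section carried the same weight in the comparisons. Dense bins, which are set by the same 2 genes, numbered 23 and 33 with CpG-STAT3ASO, and 22 and 78 under the combination, against 714 and 965 with PBS and 827 and 1090 with anti-PD1. Within the class, the median bin held 22, 26, 25 and 29 molecules of Mki67 and Birc5 in the sections given CpG-STAT3ASO, against 36, 42, 32 and 38 in the others. The intermediate bins with CpG-STAT3ASO therefore lay lower within the class limits in all 4 sections.

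**Figure D1:**
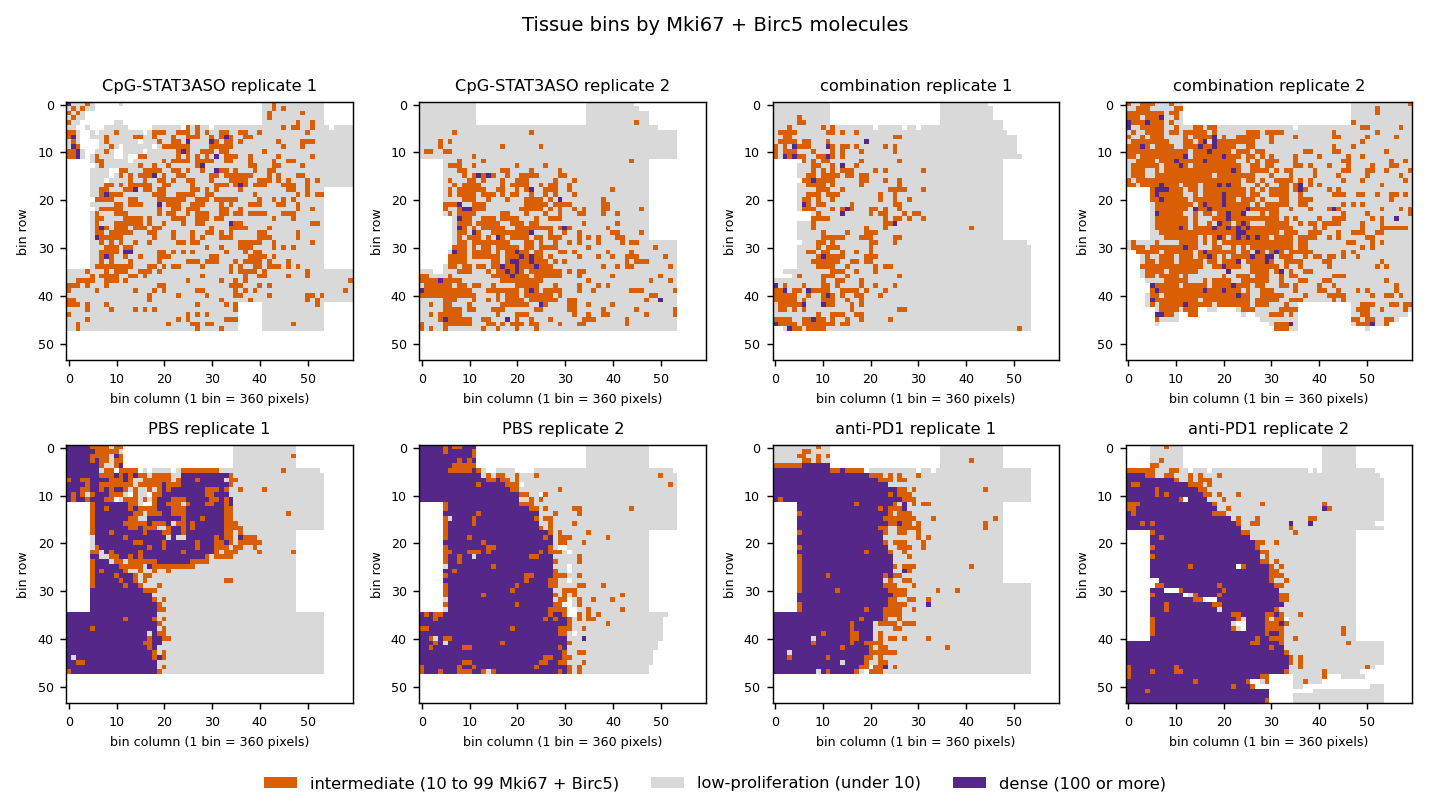
Maps of all tissue bins in the 8 sections, with sections given CpG-STAT3ASO in the upper row and the others in the lower row. Axes count bins of 360 pixels. Orange bins are intermediate, grey bins low-proliferation and purple bins dense. Orange bins form broad speckled fields in the upper row, with 22 to 78 dense bins per section, and lie mostly along solid dense areas of 714 to 1090 bins in the lower row.

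The share of intermediate bins that touched dense tissue was lower in each section given CpG-STAT3ASO than in any section without it. A dense bin adjoined, on a side or a corner, 13.5 and 21% of them with CpG-STAT3ASO, and 22.4 and 27.6% under the combination. The share was 76.9 and 69.1% with PBS and 55.5 and 73% with anti-PD1. The groups did not overlap, and the mean was 21.1 ± 5.83% with CpG-STAT3ASO and 68.6 ± 9.35% without (SD, n = 4 each), a difference of -47.5 percentage points. The exact permutation test over sections gave p = 0.0286, two-sided and the smallest possible with 4 against 4, and 0.0667 after adjustment over the 7 measures of layout compared, above the threshold of 0.05. Low-proliferation bins touched a dense bin in 4.01, 3.94, 3.74 and 7.52% of cases with CpG-STAT3ASO and in 5.63, 4.02, 3.9 and 5.23% without, ranges that overlap. How far the smaller number of dense bins sets the share among intermediate bins was not tested. Mki67 and Birc5 set both classes, so the measures of contact, distance and patches, here and below, come from the rule's own counts. Their p-values describe the layout and are no independent evidence about a tumor edge.

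The median distance from an intermediate bin to the nearest dense bin was 4.5 and 3 bins with CpG-STAT3ASO, and 3 and 2 bins under the combination, against 1 bin in all 4 other sections. A dense bin lay within 3 bins of 39.4, 66.5, 64.5 and 69.3% of intermediate bins with CpG-STAT3ASO, against 97.3, 83.6, 86.8 and 91.6% without. Both measures separated the 4 sections on each side (exact p = 0.0286 each, adjusted 0.0667). The largest connected patch held 45.7 and 63.3% of them with CpG-STAT3ASO, and 31.6 and 82.8% under the combination, against 35 and 13.2% with PBS and 20 and 11.8% with anti-PD1. These ranges overlap, and the difference did not pass the test (exact permutation p = 0.0571, adjusted 0.1). Bins with only intermediate bins around them made up 2.94 ± 3.58% with CpG-STAT3ASO and 0.188 ± 0.227% without (SD, n = 4 each), a difference of 2.75 points that did not pass either (exact permutation p = 0.0857, adjusted 0.1). Molecules of genes other than Mki67 and Birc5 averaged 1315 ± 477 per bin with CpG-STAT3ASO and 1146 ± 312 without (SD, n = 4 each, exact permutation p = 0.514), with overlapping ranges.

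Around the class limits the tissue of the sections given CpG-STAT3ASO changed gradually. Bins with 8 or 9 molecules of Mki67 and Birc5 numbered 324 there, and bins with 10 or 11 numbered 262. At the upper limit, 49 bins held 90 to 99 molecules, and 35 lay in the next 10 counts. Without CpG-STAT3ASO there were 82 and 39 such bins at the lower limit, and 56 and 68 at the upper. With CpG-STAT3ASO, Adgre1 averaged 9993 CPM in bins with 5 to 9 molecules and 10923 CPM in bins with 10 to 19. In the sections without CpG-STAT3ASO it averaged 1833 and 1705 CPM. Gpnmb, in contrast, spread over a wide range. With CpG-STAT3ASO it averaged 13604 CPM just below the lower limit, 15790 CPM just above it, 19855 CPM just below the upper limit and 20525 CPM just above. Without CpG-STAT3ASO the same steps read 6894, 19703, 58976 and 85489 CPM.

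**Figure D2:**
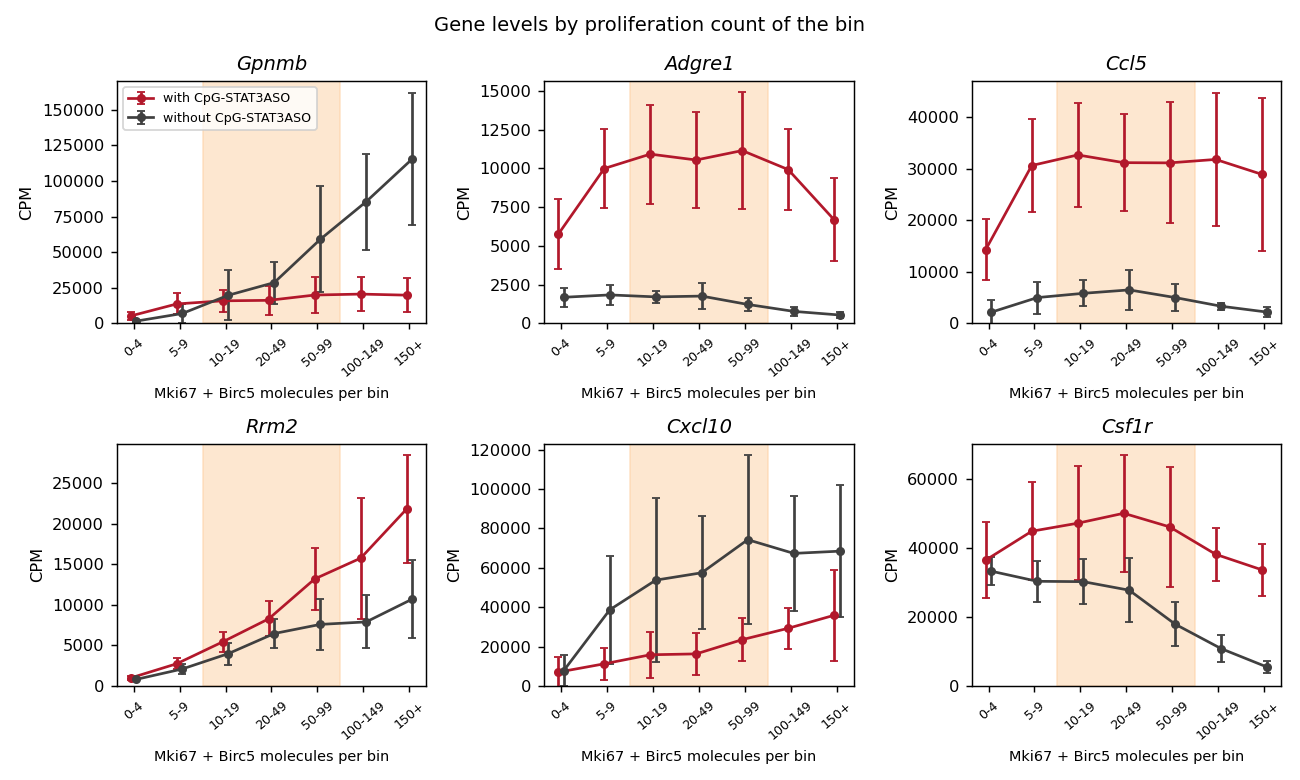
Mean level in CPM of 6 genes (vertical axes) in bins grouped by their Mki67 and Birc5 molecules (horizontal axes), with error bars giving the SD over 4 sections. Red is with CpG-STAT3ASO, grey without, and the shaded part is the intermediate class. Gpnmb reaches at most a mean of 20525 CPM with CpG-STAT3ASO and climbs to a mean of 115453 CPM in the densest group without, while Adgre1 and Ccl5 are higher with CpG-STAT3ASO at every step.

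Compared with intermediate bins of the sections without CpG-STAT3ASO, those of the sections given it held more transcripts of 2 macrophage genes and 2 chemokines. Of the 93 genes with enough molecules to test, among 98 that did not define the class, 4 passed an adjusted p of 0.05 by limma, or 4.3%, and all 4 were higher. They were Adgre1, Ccl5, Ccl3 and Cd68. The median gene was higher by 0.32 on the log2 scale, against 0.47 when molecules per bin were compared and 0.04 under median-of-ratios scaling, and the changes below should be read against that shift. The p of 23 genes was under 0.05 before adjustment. The count was 2 without combination replicate 1 and 10 without anti-PD1 replicate 1. The values of 18 genes, or 19.4%, did not overlap between the 4 sections on each side, 14 of them higher and 4 lower with CpG-STAT3ASO. The rise was not particular to intermediate bins. In low-proliferation bins Ccl5, Adgre1 and Ccl3 were higher by 3.37, 1.97 and 1.67 (limma adjusted p 0.00467 to 0.02). Cd68 was higher by 1.14 there without passing (0.053). For none of these 4 genes did the change differ past the threshold between low-proliferation and intermediate bins (limma adjusted p 0.0586 to 0.379).

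Adgre1, which encodes the macrophage surface protein F4/80, was at 14767 and 8021 CPM with CpG-STAT3ASO, and 11986 and 8267 CPM under the combination, against 2226 and 1101 CPM with PBS and 1444 and 1186 CPM with anti-PD1. The lowest section given CpG-STAT3ASO lay far above the highest of the others. Its mean was 7.22-fold higher, and the log2 difference of 2.86 ± 0.36 (SE) passed with an adjusted p of 0.00185. It remained past the threshold under all 30 alternatives, with differences of 2.27 to 3.35 and adjusted p values of 1.69e-05 to 0.0144.

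Ccl5, a chemokine that attracts T cells and monocytes, was at 30881 and 29792 CPM with CpG-STAT3ASO, and 20919 and 45102 CPM under the combination, against 5778 and 6778 CPM with PBS and 7880 and 1907 CPM with anti-PD1. The sides did not overlap, and combination replicate 2 was highest. Its log2 difference was 2.63 ± 0.46 (SE, limma adjusted p = 0.00825), and 2.78 with an adjusted p of 0.0789 for molecules per bin. Ccl3, a chemokine of activated macrophages and microglia, was at 3489.5 and 2704 CPM with CpG-STAT3ASO, and 3926 and 2504 CPM under the combination, against 1159 and 765 CPM with PBS and 673 and 485 CPM with anti-PD1. It was higher by 2.08 ± 0.37 on the log2 scale (SE, adjusted p = 0.00825), and its adjusted p was 0.0567 without combination replicate 1. Cd68, a lysosomal glycoprotein of phagocytes, was at 24029.7 and 15069 CPM with CpG-STAT3ASO, and 40010.5 and 24092 CPM under the combination, against 12694 and 2947 CPM with PBS and 4640 and 4790 CPM with anti-PD1. Its log2 difference was 2.18 ± 0.46 (SE, adjusted p = 0.0229). That call depended on single sections, since the adjusted p was 0.0605 without CpG-STAT3ASO replicate 1, 0.113 without combination replicate 1 and 0.0712 without anti-PD1 replicate 2.

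**Figure D3:**
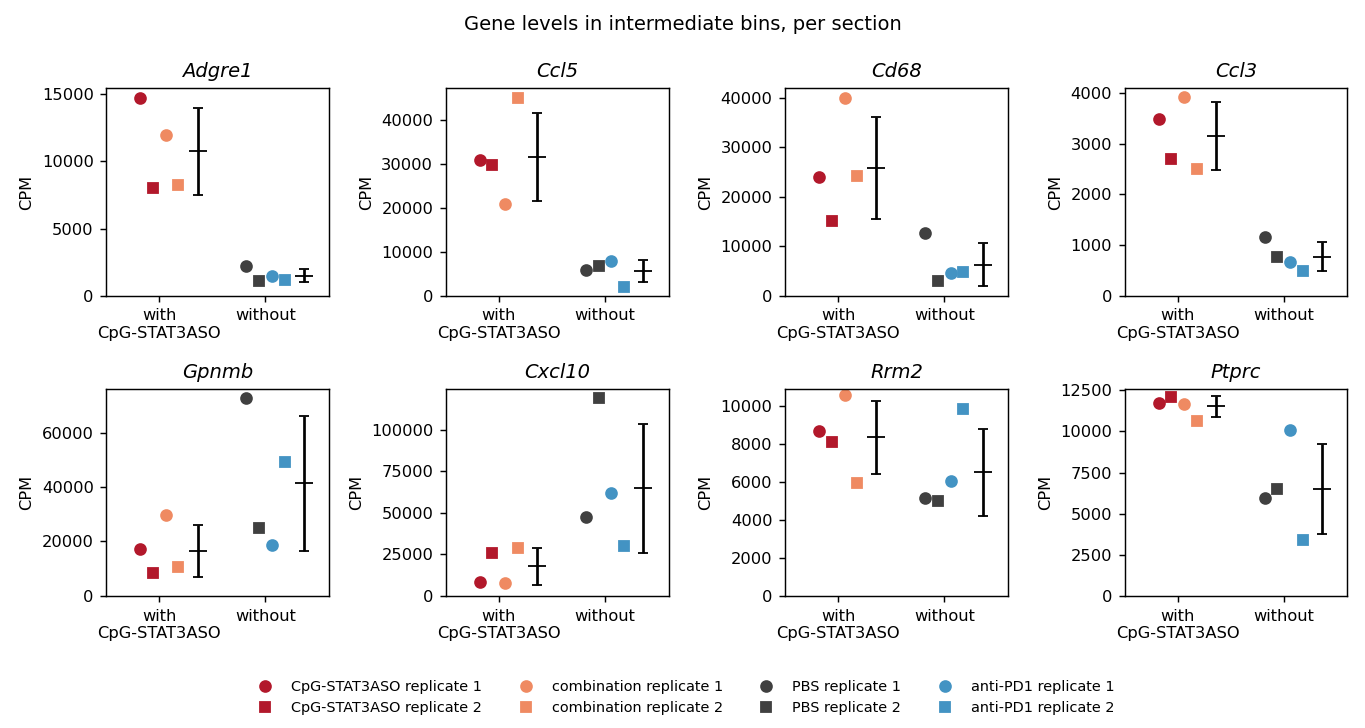
Levels in CPM (vertical axes, from 0) of 8 genes in the intermediate bins of each section, with CpG-STAT3ASO at left and without at right. Points are sections, and the black mark with its bar is the mean ± SD of 4 sections. Adgre1, Ccl5, Ccl3 and Cd68 are higher in all 4 sections given CpG-STAT3ASO, Cxcl10 is lower in all 4, and Gpnmb and Rrm2 overlap.

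Several other immune genes had higher values that did not pass the test. Msr1, a scavenger receptor, was at 2085, 1270.5, 5343 and 2821 CPM in the sections given CpG-STAT3ASO and 1055, 994, 937 and 440 CPM in the others (log2 difference 1.63, adjusted p = 0.0627). Tlr9, the receptor of the CpG part of the agent, was at 3909, 2872, 3254 and 3515 CPM against 1175, 941, 2511 and 982 CPM without (1.39, adjusted p = 0.0823). Ptprc, carried by all leukocytes, was at 11741, 12097, 11670 and 10619 CPM against 5966, 6478, 10115 and 3425 CPM without (0.93, adjusted p = 0.166). None of the values of these 3 genes overlapped between the sides. Among the 7 measured genes of the macrophage and monocyte list, Adgre1 and Cd68 rose and 5 did not pass, with a median log2 difference of 1.3, against 0.32 over all genes. Of the 6 chemokines, Ccl3 and Ccl5 rose and 4 did not pass (median 1.27).

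Lymphocyte genes of the intermediate bins did not separate the treatments. None of the 8 T cell genes and none of the 8 tested cytotoxic and NK genes passed, with median log2 differences of 0.1 and -0.33. Cd8a, the coreceptor of cytotoxic T cells, was at 674 and 1720 CPM with CpG-STAT3ASO, 1768 and 5420 CPM with the combination, 1126 and 775 CPM with PBS and 1565 and 944 CPM with anti-PD1. Combination replicate 2 stood far above the other 7 sections, while CpG-STAT3ASO replicate 2 and combination replicate 1 lay just above the highest section without CpG-STAT3ASO, and the average difference was 0.78 (adjusted p = 0.33). The 8 dendritic cell genes, the 2 microglial genes on the panel (Tmem119 and Csf1r), the 3 pan-leukocyte genes and the 7 tested genes of TLR and NF-kB inflammation had no member past the threshold either. Csf1r, the growth factor receptor of macrophages and microglia, still lay higher in each section given CpG-STAT3ASO, at 70957, 37027, 51703 and 33858 CPM against 20659, 13961, 31537 and 28073 CPM without (log2 difference 1.04, adjusted p = 0.137). The only neutrophil gene measured, Ly6g, had 1 to 19 molecules per section and was not tested.

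Lower values were found for the interferon-induced chemokine Cxcl10, at 8287 and 25797 CPM with CpG-STAT3ASO, and 7999 and 28896 CPM under the combination, against 47459 and 118969 CPM with PBS and 61853 and 29922 CPM with anti-PD1. The sides did not overlap, but the log2 difference of -1.93 did not pass (adjusted p = 0.0863). Gpnmb was at 17408, 8523, 29810 and 10762 CPM with CpG-STAT3ASO and 72897, 24826, 18523 and 49071 CPM without, and here combination replicate 1 lay above 2 of the sections without it (-1.28, adjusted p = 0.166). Stat3, the target of the antisense part, was at 34435, 38479, 43428 and 24997 CPM against 54409, 52852, 52648 and 82789 CPM. Its sides did not overlap, and the difference of -0.78 did not pass (adjusted p = 0.188). Rrm2, a subunit of the enzyme that makes deoxynucleotides for DNA synthesis, was at 8718, 8135, 10609 and 5966 CPM with CpG-STAT3ASO and 5142, 5025, 6033 and 9868 CPM without (0.39, adjusted p = 0.472), with overlapping ranges.

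The proportion of the 3 proliferation genes to each other was not the same. There were 18.7, 16.7, 18 and 20.2 Birc5 molecules per 100 Mki67 molecules in the intermediate bins given CpG-STAT3ASO, against 31.3, 32.8, 22.6 and 27.4 in the others. Rrm2 stood at 32.7, 42.5, 42.9 and 40.7 molecules per 100 of Mki67 with CpG-STAT3ASO, against 15.7, 20, 28.9 and 26.2 without. Both ratios separated the sides completely, Birc5 being lower and Rrm2 higher relative to Mki67 with CpG-STAT3ASO. Since 2 of these genes set the class, these ratios are descriptions only.

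Split by partner agent, fewer genes passed. CpG-STAT3ASO against PBS called 1 of 93 genes (1.08%), Adgre1 with a log2 difference of 2.8 ± 0.51 (SE, limma adjusted p = 0.0329). That call had an adjusted p of 0.302 without CpG-STAT3ASO replicate 1, 0.155 without PBS replicate 2, and 0.0509 and 0.0511 without anti-PD1 replicate 1 or 2. The combination against anti-PD1 called 5 of 93 (5.38%), all higher: Ccl5 by 2.99, Adgre1 by 2.93, Cd68 by 2.72, Msr1 by 2.59 and Ccl3 by 2.45 (adjusted p 0.0236 to 0.0416). None of the 5 passed without combination replicate 1, without combination replicate 2 or without anti-PD1 replicate 2.

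Adding anti-PD1 to CpG-STAT3ASO called none of the 93 genes (0%) in the intermediate bins, with 2 at an unadjusted p under 0.05. The closest was Arg1, an arginine-degrading enzyme of suppressive myeloid cells, at 3860 and 3343 CPM with the combination against 1018 and 454 CPM with CpG-STAT3ASO alone. Its log2 difference was 2.4 ± 0.56 (SE, adjusted p = 0.178). The average effect of anti-PD1 and the interaction of both agents called none either (0% each), with 1 and 4 genes at an unadjusted p under 0.05.

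Within the sections given CpG-STAT3ASO, intermediate bins differed widely from the low-proliferation bins of the same sections. Of 96 genes tested, 55 passed (57.3%), 42 higher and 13 lower, while the median gene was higher by 0.52 on the log2 scale. The split depends on scaling: 72 of 76 calls were higher for molecules per bin, and 19 of 39 under median-of-ratios scaling. Rrm2, which the rule did not use, was at 8718, 8135, 10609 and 5966 CPM in intermediate bins against 1787, 1214, 1153 and 1146 CPM in low-proliferation bins. It had the largest called change of any gene (2.65 ± 0.17, SE, adjusted p = 2.68e-06), so the label of intermediate proliferation holds for a proliferation gene outside the rule.

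Among the 7 measured macrophage and monocyte genes 6 were higher and 1 did not pass, and the 3 pan-leukocyte genes all rose. Msr1 rose by 1.45, the cytokine Il10 by 1.43, Tgfbi (an extracellular matrix protein made by monocyte-derived cells) by 1.23 and Ccl3 by 1.2, with adjusted p values of 0.000606 to 0.00363. Csf2rb, the shared receptor chain of GM-CSF and IL-3, rose by 1.02 and Ptprc by 0.86. Adgre1 was at 14767, 8021, 11986 and 8267 CPM in intermediate bins against 9442, 4527, 7311 and 5128 CPM in low-proliferation bins, a step of 0.72 (adjusted p = 0.000754). The step was upward in all 4 sections, yet the ranges overlap because the sections differ.

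Of the T cell genes 5 of 8 were higher and 3 did not pass, a share near the 57.3% called over all genes, with a median of 0.77 against 0.52 over all genes. Cd8a rose by 0.78 (adjusted p = 0.0195), although it stepped down by a little in CpG-STAT3ASO replicate 1 (-0.08), and Pdcd1, which encodes PD-1, rose by 0.79 (0.014). Cd3d, part of the T cell receptor complex, was at 52, 250, 184 and 211 CPM in intermediate bins against 58, 95, 88 and 127 CPM in low-proliferation bins and did not pass (0.76, adjusted p = 0.0726). Cd4 fell by 1.04 (limma adjusted p = 0.0171). It averaged 12490 CPM in intermediate and 21315 CPM in low-proliferation bins, against 174 and 92 CPM for Cd3d, so its fall cannot be read as one of T cells. Sirpa, a receptor of myeloid cells and neurons that binds Cd47, fell by 0.84 (limma adjusted p = 0.0017). The list of 10 genes that an earlier reading of these sections found low in dense tumor had 8 members lower and 2 not passing, and its counterpart of 6 genes high in dense tumor had 5 higher. Both lists were chosen on these sections and are no independent evidence of a direction.

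In the intermediate bins of the sections without CpG-STAT3ASO most steps had the same direction. For 95 genes tested on both sides, 84 steps had the same sign, while 61 of 94 genes passed within the sections without CpG-STAT3ASO (64.9%). Pearson's r was 0.832 and Spearman's rho 0.778 across these genes, which are not independent and share panel and sections. The step of Rrm2 from low-proliferation to intermediate bins was 2.65 with CpG-STAT3ASO and 2.81 without. The difference of the steps passed for 18 of 95 genes (18.9%), 4 with a higher and 14 with a lower step with CpG-STAT3ASO. The median difference was -0.15. With molecules per bin 1 gene passed, with a lower step, and under median-of-ratios scaling 27 did, 14 higher and 13 lower. The count was 1 without CpG-STAT3ASO replicate 1, combination replicate 2 or PBS replicate 2, 3 without combination replicate 1, 7 without anti-PD1 replicate 1 and 11 without CpG-STAT3ASO replicate 2.

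Gpnmb carried the largest of these differences. Its step was 0.84, 1.28, 1.75 and 1.21 on the log2 scale in the sections given CpG-STAT3ASO, against 4.63, 3.87, 3.82 and 4.86 in the others. The steps did not overlap, and the difference of -3.03 ± 0.35 (SE, limma adjusted p = 0.000883) passed whichever section was left out. It fell short under class limits of 5 to 49 molecules (-1.88, adjusted p = 0.0523). In low-proliferation bins Gpnmb was at 9738, 3506, 8867 and 4657 CPM with CpG-STAT3ASO against 2952, 1696, 1306 and 1694 CPM without, a log2 difference of 1.75 (adjusted p = 0.0266) in a comparison that called 9 of 96 genes (9.38%). In intermediate bins its mean difference was -1.28, which did not pass.

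Genes of cytotoxic lymphocytes were among the others with a lower step. Ifng, the main interferon of T and NK cells, stepped up by 0.31, 1.61, 1.25 and 0.68 with CpG-STAT3ASO and by 2.07, 2.97, 4.05 and 3.39 without (difference -2.16, adjusted p = 0.0178). Prf1, the pore-forming perforin, stepped by 0.1, 0.13, -0.15 and 0.3 with CpG-STAT3ASO and by 0.99, 1.3, 1.61 and 2.02 without (-1.38, adjusted p = 0.0179). The steps of neither gene overlapped between the sides. With against without CpG-STAT3ASO, Ifng differed by 1.8 in low-proliferation bins and by -0.36 in intermediate bins, and Prf1 by 0.46 and -0.93. None of these 4 differences passed (limma adjusted p 0.0904 to 0.813). Pdcd1lg2, a ligand of PD-1, Il1b, Il2ra, Tnfrsf9, Gzma and Gzmb were lower in step as well, by 1.39 to 1.75. Of the 8 tested cytotoxic and NK genes 4 had a lower step and 4 did not pass, and of the 8 T cell genes 1 did, Il2ra.

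A higher step was found for Sirpa, Fabp5 (a fatty acid carrier), Csf1r and Ifna2. Csf1r stepped by 0.49, 0.31, 0.19 and 0.32 with CpG-STAT3ASO and by -0.77, -1.35, 0.21 and -0.28 without (difference 0.87, adjusted p = 0.035). It was higher in intermediate than in low-proliferation bins in all 4 sections given CpG-STAT3ASO and in 1 of 4 without, although anti-PD1 replicate 1 overlapped the lowest of them. Sirpa fell in both, by less with CpG-STAT3ASO (-0.84 against -2.1, difference 1.26, adjusted p = 0.0397). Ifna2 had only 36, 71, 24 and 240 molecules in intermediate bins with CpG-STAT3ASO and 20, 13, 6 and 4 without.

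**Figure D4:**
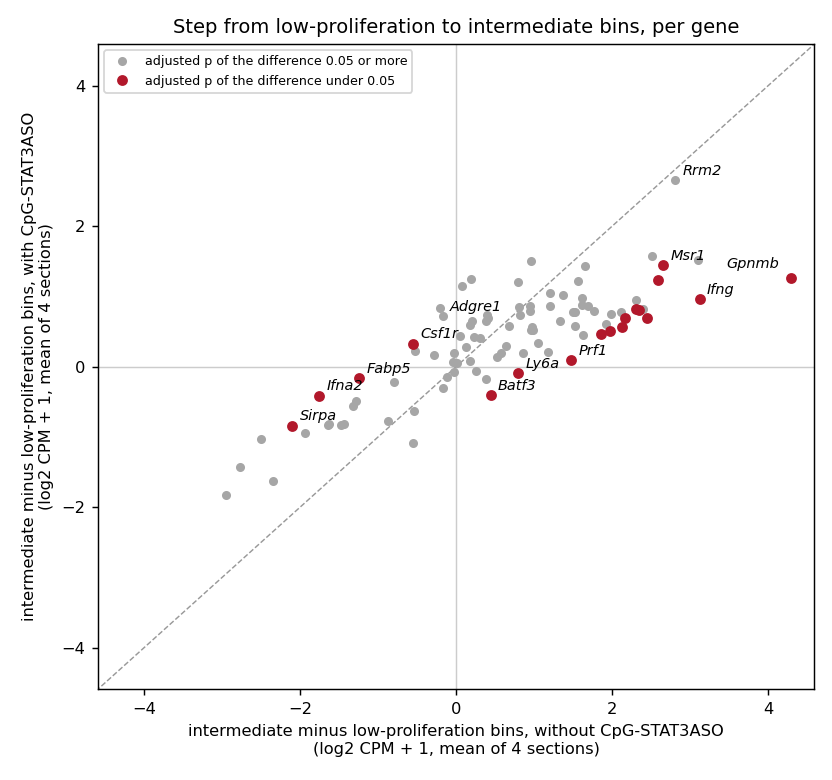
Step of each of 95 genes from low-proliferation to intermediate bins on the log2 scale, with CpG-STAT3ASO on the vertical axis and without on the horizontal axis, each the mean of 4 sections. Red points are the 18 genes whose steps differed (adjusted p under 0.05), and the dashed line marks equal steps. Rrm2 lies near the line, and Gpnmb lies farthest below it, at 4.29 without and 1.27 with CpG-STAT3ASO.

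Whether the bins resemble a tumor edge was read from their relation to dense tissue. In the sections given CpG-STAT3ASO, intermediate and dense bins differed in 1 of 93 genes (1.08%), with 18 at an unadjusted p under 0.05. That gene was Rrm2, at 8718, 8135, 10609 and 5966 CPM in intermediate bins against 20920.5, 14726, 25636 and 9799 CPM in dense bins, lower in each section (-1.03 ± 0.14, SE, limma adjusted p = 0.0215). Its adjusted p was 0.0597 without CpG-STAT3ASO replicate 2 and 0.0642 without combination replicate 1. Gpnmb did not pass there, at 17408, 8523, 29810 and 10762 CPM in intermediate bins against 30185, 8618, 30915 and 12093 CPM in dense bins (-0.26, adjusted p = 0.474). The same comparison in the sections without CpG-STAT3ASO called 51 of 96 genes (53.1%), with Gpnmb lower by 1.58 and Sirpa, Csf1r and Adgre1 higher by 3.45, 2.05 and 1.46 in intermediate bins. Dense bins numbered 22 to 78 in the first set of sections and 714 to 1090 in the second, and the difference between the 2 comparisons was not tested.

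Intermediate bins near and far from dense bins were not alike within the sections given CpG-STAT3ASO. The comparison was added after seeing the data. A dense bin lay within 3 bins of 245 of 622, 395 of 594, 216 of 335 and 765 of 1104 bins, and the rest were counted as far. Of 93 genes, 27 passed (29%), 16 lower and 11 higher far from dense bins, and for molecules per bin 38 passed, 34 of them lower. The count was 10 without combination replicate 1 and 16 without CpG-STAT3ASO replicate 1. Mki67 was at 26869.7, 21633, 27147 and 15636 CPM far from dense bins against 26384, 18185, 23658 and 14318 CPM near them. It was higher far from dense bins in each section, and Birc5 was at 4878, 3248, 4671 and 2898 CPM far against 5158, 3166, 4354 and 2991 CPM near, without a common direction.

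Gpnmb was lower away from dense bins in each section, at 8488, 3774, 10896 and 4282 CPM far against 29636, 10295, 38337 and 13039.9 CPM near (-1.67 ± 0.11, SE, limma adjusted p = 0.000452). Arg1 fell further, at 296, 222, 379 and 815 CPM far against 2008, 541, 5429.7 and 4232 CPM near (-2.56, adjusted p = 0.00952). Msr1 fell by 1.67, Tgfbi by 1.16 and Cd68 by 0.75 (adjusted p 0.00344 to 0.0129), so 3 of the 7 macrophage and monocyte genes were lower and 4 did not pass. Adgre1, at 11583, 7145, 11710 and 5945 CPM far against 19132, 8348, 12110 and 9083 CPM near, did not pass (-0.4, adjusted p = 0.0813). Among chemokines Ccl3, Ccl4 and Cxcl10 fell and 3 did not pass. Cxcl10 was at 3656, 19165, 3154 and 24640.2 CPM far against 14636, 28272, 10184 and 30392 CPM near (-1.14, adjusted p = 0.0408), and did not pass when any section other than combination replicate 2 was left out, with adjusted p values of 0.0755 to 0.144.

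Higher far from dense bins were Cd47, the ligand of Sirpa, by 0.71 and Crbn, a ubiquitin ligase subunit, by 0.78 (adjusted p = 0.0015 and 0.00345), with Sirpa by 0.55 and Cd4 by 1.4. Of the 10 genes low in dense tumor in the earlier reading, 5 were higher and 5 did not pass. None of the 8 T cell genes and none of the 8 cytotoxic and NK genes passed in either direction. Among pan-leukocyte genes Ptprc was lower far from dense bins by 0.36 and Csf2rb by 0.69 (limma adjusted p = 0.0416 and 0.0176). Il16 did not pass (limma adjusted p = 0.304). Of the microglial genes, Tmem119 was higher far from dense bins by 0.38 and Csf1r did not pass (limma adjusted p = 0.0476 and 0.179). Rrm2, at 6197, 6779.95, 5633 and 5665 CPM far against 12175, 8641, 12853 and 6072 CPM near, was lower in each section without passing (-0.65, adjusted p = 0.0602).

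The proliferation molecules of these bins were not spread evenly. Clumps here are groups of Mki67 and Birc5 molecules built around core molecules. A core molecule has at least 8 such molecules, itself counted, within 30 pixels. The clump measures were added after seeing the data. Clumps held 60.1, 62.5, 64.1 and 58.1% of the Mki67 and Birc5 molecules of intermediate bins with CpG-STAT3ASO and 56.3, 65.6, 62.8 and 66.2% without. There were 418, 486, 250 and 804 clumps with CpG-STAT3ASO and 355, 260, 219 and 177 without. A clump held a median of 20, 19, 19 and 21 molecules with CpG-STAT3ASO and 17, 18, 18 and 21 without, over an extent of 68 to 73 and 68 to 78 pixels. Clump size overlapped between the sides, whereas clumps per bin did not, at 0.672, 0.818, 0.746 and 0.728 with CpG-STAT3ASO and 1.06, 1.18, 0.995 and 0.994 without. Bins with 2 or more clumps made up 11.6 ± 2.31% with CpG-STAT3ASO and 24.8 ± 3.06% without (SD, n = 4 each). These measures use the rule genes and were not tested.

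What lay on the clumps was read in circles of 50 pixels radius and set against the same circles moved by 500 pixels into other parts of intermediate bins. Moved circles that overlapped a circle on a clump were left out, so they lie off the clumps by construction. Circles on clumps held more of most genes than moved circles, with a median log2 ratio over 79 genes of 1.34 with CpG-STAT3ASO and 1.23 without. Rrm2 led this order with CpG-STAT3ASO. It was found on 56, 68.5, 73.2 and 75.6% of clumps, against 15.4, 22.1, 20.2 and 25.2% of moved circles. Without CpG-STAT3ASO it was on 59.2, 64.6, 79.5 and 78.5% of clumps, against 11, 17.6, 24.4 and 21.7% of moved circles. The log2 ratio of its mean was 3.47 ± 0.23 with and 3.27 ± 0.48 without CpG-STAT3ASO (SD, n = 4 each), so clumps of both sides carried a proliferation gene outside the rule.

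Set against moved circles, Gpnmb did not mark the clumps of sections given CpG-STAT3ASO. It was present on 27.8 and 21% of clumps with CpG-STAT3ASO, and 38.8 and 38.8% under the combination, against 23.6, 22, 42.4 and 36.8% of moved circles. Without CpG-STAT3ASO it was on 80.8 and 64.2% of clumps with PBS and 51.1 and 61.6% with anti-PD1, against 37.4, 18.8, 30.8 and 30.2% of moved circles. A clump held on average 1.76, 0.92, 3.54 and 1.72 Gpnmb molecules with CpG-STAT3ASO and 18.1, 8.81, 9.87 and 15.9 without. No section overlapped between the sides. The log2 ratio of clumps over moved circles averaged 0.17 ± 0.39 with CpG-STAT3ASO, rank 77 among 79 genes, and 2.47 ± 0.31 without (SD, n = 4 each).

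Among the 79 genes, Gpnmb alone passed in a limma comparison of these ratios (1.27%), with a difference of -2.31 ± 0.3 (SE, adjusted p = 0.019), and 10 genes had an unadjusted p under 0.05. The call was lost without CpG-STAT3ASO replicate 2, combination replicate 1 or 2, or PBS replicate 1 or 2, with differences of -2.35 to -2.09 and adjusted p values of 0.0617 to 0.1. Moved circles of sections without CpG-STAT3ASO numbered 106 to 438, against 321 to 1605 with. Far from dense bins the sections without CpG-STAT3ASO left 0 to 4 moved circles, so the comparison could not be made there.

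Leukocyte transcripts were found on many clumps. Ptprc was present on 74.6 and 77.4% of clumps with CpG-STAT3ASO, and 54.8 and 73% under the combination, against 25, 37.5, 35.5 and 44.5% of moved circles. Without CpG-STAT3ASO it was on 27.9 and 38.8% with PBS and 56.6 and 31.6% with anti-PD1, against 15.3, 11.4, 33.5 and 14.2% of moved circles. More than 50% of clumps carried it in each section given CpG-STAT3ASO and in anti-PD1 replicate 1 among the others. The excess of Ptprc over moved circles was 34.3 ± 13.3 percentage points with CpG-STAT3ASO and 20.2 ± 6.51 without (SD, n = 4 each). That difference did not pass an exact permutation test (p = 0.114, adjusted 0.32 over 28 such measures). Lists were counted as present with at least 1 molecule of their genes. The excess of the macrophage and monocyte list was lower with CpG-STAT3ASO, at 12.1 ± 8.34 against 31.8 ± 7.33. Its exact permutation p was 0.0286, adjusted 0.2. For the microglia list the excess was 14 ± 8.17 against 26.2 ± 4.08 (exact permutation p = 0.0857, adjusted 0.3). Its genes differed, with a mean excess of 26.33 against 21.36 for Tmem119 and 17.04 against 20.43 for Csf1r. Their mean log2 ratios of clumps over moved circles were higher with CpG-STAT3ASO, at 2.075 against 1.938 and 1.997 against 1.413. Presence ignores how many molecules a circle holds. How far presence in moved circles limits the excess of a list was not tested. The excess of the single gene Adgre1 was higher, at 19.6 ± 10.7 against 8.91 ± 2.75, as was that of Cd68, at 19.8 ± 11.1 against 14.5 ± 2.77. None of these differences passed after adjustment.

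Adgre1 was on 71.3, 57.2, 52.4 and 58.3% of clumps with CpG-STAT3ASO, against 36.3, 38.2, 39.3 and 46.9% of moved circles, and on 16.1, 18.5, 21.9 and 11.3% of clumps without, against 9.38, 6.25, 11.8 and 4.72%. Csf1r, also a gene of microglia, had on average 21.6, 14.5, 11.7 and 9.92 molecules per clump with CpG-STAT3ASO, against 3.65, 2.86, 3.27 and 4.16 in moved circles. Without CpG-STAT3ASO a clump held 2.52, 2.01, 8.87 and 6.02 Csf1r molecules, against 0.97, 1.01, 3.04 and 1.8. Both genes were more abundant on clumps than beside them on both sides, as the median gene was. With CpG-STAT3ASO the log2 ratio of Csf1r ranked 16 and that of Adgre1 46 among the 79 genes. For Adgre1 the ratio of clumps over moved circles was alike in mean, 1.09 ± 0.43 with CpG-STAT3ASO and 1.2 ± 0.2 without on the log2 scale (SD, n = 4 each).

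T cell genes were present on fewer clumps than Ptprc in all 8 sections. At least 1 molecule of the 8 genes of the T cell list lay on 17.2, 46.5, 26.4 and 43.8% of clumps with CpG-STAT3ASO, against 5.19, 19.6, 17.4 and 19.1% of moved circles. The values without were 20.3, 20.8, 39.3 and 22% of clumps, against 8.22, 10.2, 20.4 and 11.3%, which overlap those with CpG-STAT3ASO. Cd8a was on 31.3% of clumps in combination replicate 2, against 11.5% of moved circles, and on 2.63, 9.26 and 6% of clumps in the other sections given CpG-STAT3ASO. Nkg7, a granule protein of cytotoxic lymphocytes, was on 31.5% of clumps in combination replicate 2 and on 5.26, 15.2 and 3.2% in the other 3. Cd3d was on no more than 11.3% of clumps in any section. Presence depends on abundance, and by log2 ratio of clumps over moved circles some lymphocyte genes ranked high with CpG-STAT3ASO. Gzmb ranked 2, Ifng 3, Il2ra 6, Cd8a 9 and Nkg7 12 among the 79 genes, but Prf1 19, Ctla4 37 and Klrc1 41. Gzmb and Ifng had as few as 2 and 1 molecules in the moved circles of a section. The Il2ra ratio ranged from -0.12 to 3.46 over these sections and that of Cd8a from 1.09 to 2.91. The order was not tested.

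**Figure D5:**
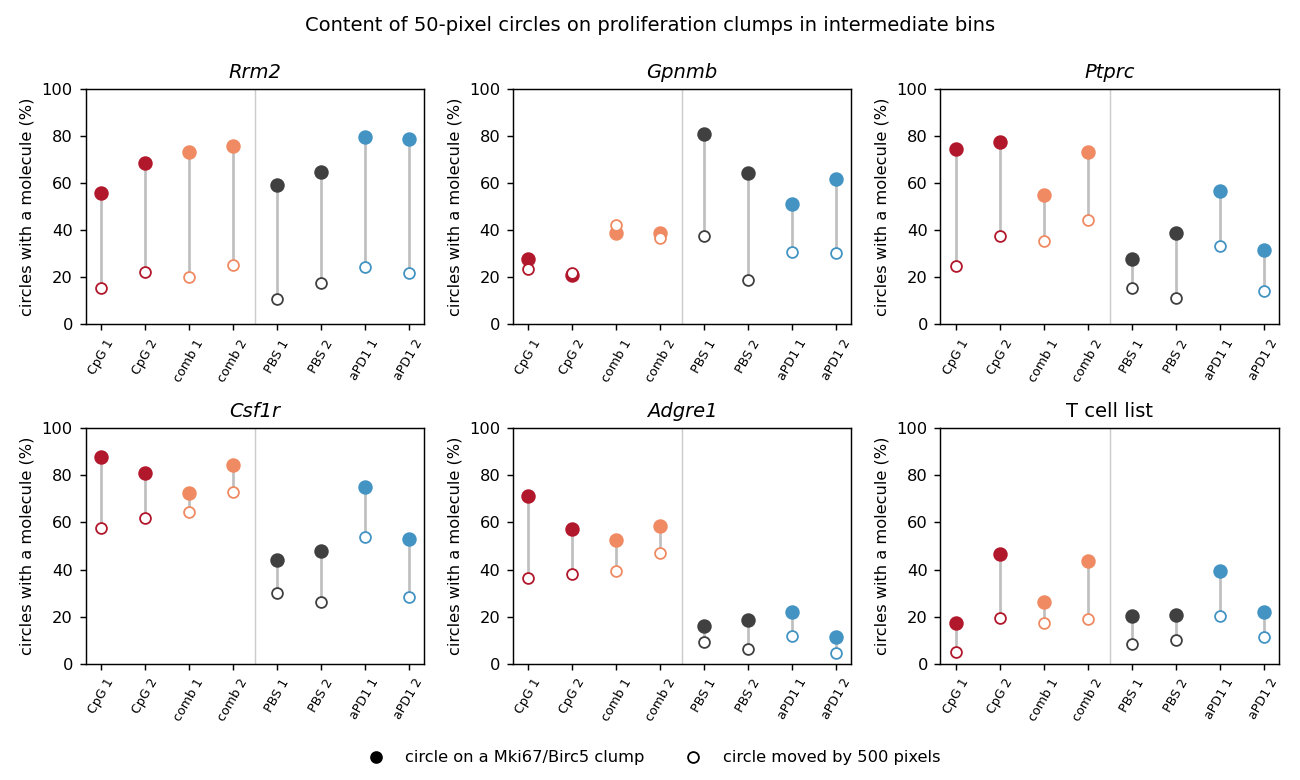
Share of circles of 50 pixels radius that held at least 1 molecule (vertical axes, %), per section (horizontal axes, CpG-STAT3ASO and combination left of the line, PBS and anti-PD1 right of it). Filled points are circles on clumps of Mki67 and Birc5, open points the circles moved by 500 pixels. Rrm2 is on 56 to 79.5% of clumps in all sections, Gpnmb differs from its moved circles by a few points at left and stands far above them in all 4 sections at right, and Ptprc and Adgre1 are on more than 50% of clumps in every section at left.

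Gene density around single Mki67 and Birc5 molecules was also compared, within 100 pixels and in a ring of 400 to 600 pixels. The log2 density ratio of Rrm2 was 2.27, 1.94, 2.34 and 1.71 with CpG-STAT3ASO and 0.62, 0.53, 0.55 and 0.38 without. The 2 rule genes themselves differed in the same way, with mean ratios of 2.69 and 0.38 for Mki67 and 2.33 and 0.19 for Birc5. The ring lies largely in neighbouring bins, and these were more often dense without CpG-STAT3ASO. How far the ring sets the ratios was not tested. The comparison of ratios called 5 of 93 genes (5.38%), all higher with CpG-STAT3ASO: Rrm2 by 1.54, Dnmt1 by 0.7, Cd14 by 0.69, Stat6 by 0.52 and Stat3 by 0.44 (limma adjusted p 0.0155 to 0.0462). Gpnmb, in contrast to its ratio on clumps, was higher with CpG-STAT3ASO here. It was at 0.69, 0.26, 0.61 and 0.22 with CpG-STAT3ASO and 0.08, -0.2, -0.59 and -0.22 without, and did not pass (difference 0.68, limma adjusted p = 0.0525). The median gene was higher by 0.33, and relative to it none passed. For molecules with no dense bin within 3 bins the difference of Rrm2 turned to -1.2 (limma adjusted p = 0.819). Such bins numbered only 9, 36, 29 and 15 without CpG-STAT3ASO, with 162 to 933 of these molecules, against 119 to 377 bins with it. The Rrm2 ratios there ranged from 1.58 to 5.51 without CpG-STAT3ASO. For Gpnmb the mean ratio there was 0.55 with CpG-STAT3ASO and 3.05 without, the latter from 1.54 to 4.44. The count was 0 without CpG-STAT3ASO replicate 1, combination replicate 1, PBS replicate 1 or PBS replicate 2, 2 without combination replicate 2, 9 without anti-PD1 replicate 2, 12 without CpG-STAT3ASO replicate 2 and 13 without anti-PD1 replicate 1.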

How the data were processed

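Resolve single-molecule FISH of a 100-gene panel was analysed in 8 sections, 2 per treatment, grouped by their titles. The deposited files hold, by their values, 1 line per called molecule with a position in pixels and a target name. Pixel size, spot calling and registration: not given in the sources used here. Per the submitters' processing notes, Seurat 4.2.0 was used, in an unstated role. The 28 targets whose names start with FP were taken to be false positives and left out. The members and gene lists were chosen with earlier results of these data known.

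Molecules were summed over the bins of a class in each section and scaled to CPM. log2(CPM + 1) was fitted by limma 3.58.1 (lmFit, eBayes with trend, R 4.3.3) with 4 group means over all 8 sections, which share 1 estimate of the spread. Genes entered when they averaged 10 or more molecules a section, and Mki67 and Birc5 were left out. Fold changes on this scale understate low genes. Comparisons between classes had the section as a block. P-values were two-sided, adjusted by Benjamini-Hochberg over all genes tested, with a threshold of 0.05. Layout was compared by exact permutation of sections in SciPy 1.17.1, where the smallest p is 0.0286 for 4 against 4 sections. Clumps were found with DBSCAN (scikit-learn 1.9.0). The limma step was tested on simulated sums with known changes.

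Named genes are those past the threshold whose sections do not overlap, up to 12 per direction and comparison by size of change, plus a set list of cell type, proliferation and target genes. Outside this rule, Arg1, Cd14, Cd47, Crbn, Ctla4, Dnmt1, Gzma, Gzmb, Klrc1, Ly6g, Nkg7 and Stat6 were named after their values were seen. So were Msr1, Tgfbi, Sirpa, Ccl3, Ccl4, Csf2rb, Ifng, Il16, Il2ra and Prf1 in some comparisons. Alternatives covered scaling, filters, class limits, bin size, distance to dense bins and leaving out each section.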

Additional observations from a re-analysis of the deposited data

Results flagged for a closer look

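In 50 sets of 4 sections (the named genes with and without CpG-STAT3ASO), 5 held a section far from the other 3 by Dixon's criterion, where chance gives about 1 in 20. Stat3 stood at 82789 CPM and Tmem119, a microglial gene, at 13950 CPM in anti-PD1 replicate 2, both above the other sections without CpG-STAT3ASO, and Msr1 at 440 CPM below them. Spp1, which encodes osteopontin, stood at 24546 CPM in PBS replicate 1, against 1141 to 1735 CPM in the other sections without it. Cd4 was at 2944 CPM in combination replicate 2, against 13823 to 16677 CPM in the other sections given CpG-STAT3ASO.

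The step from low-proliferation to intermediate bins differed with and without CpG-STAT3ASO for 18 genes, by a test of the difference itself (limma adjusted p 0.000883 to 0.0491). On the log2 scale, with minus without, the differences were -3.03 for Gpnmb, -2.16 for Ifng, -1.75 for Pdcd1lg2, -1.56 for Itgax, -1.54 for Il1b, -1.48 for Il2ra, -1.46 for Tnfrsf9 and -1.46 for Gzmb. They were -1.39 for Gzma, -1.38 for Prf1, -1.36 for Tgfbi, -1.21 for Msr1, -0.89 for Ly6a and -0.85 for Batf3. Upward differences were 0.87 for Csf1r, 1.08 for Fabp5, 1.26 for Sirpa and 1.34 for Ifna2.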

How the results depend on the processing

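Counts of genes past the threshold, by limma, moved with several choices. In intermediate bins with against without CpG-STAT3ASO (4 genes) they were 20 with bins of 180 pixels, 27 with class limits from 20 to under 200 and 7 in bins touching no dense bin, and 2 to 10 when 1 section was left out, the lowest without combination replicate 1 and the highest without anti-PD1 replicate 1. For the combination against anti-PD1 (5) they were 2 for molecules per bin, 3 under median-of-ratios scaling and 0 to 7 with 1 section left out. Leaving out 1 section gave 0 to 2 for CpG-STAT3ASO against PBS (1), 0 to 4 for intermediate against dense bins (1; 6 for molecules per bin), 10 to 20 for bins far from against near dense bins (27) and 0 to 2 for clumps (1; 2 with circles of 80 pixels). For the difference of steps (18) they were 1 for molecules per bin, 35 and 4 with bins of 180 and 720 pixels, 1 and 31 with class limits of 5 to 49 and from 20 to under 200, and 1 to 21 with 1 section left out. For density around proliferation molecules (5) they were 1 without a trend, 22 with a radius of 200 pixels, 18 around Birc5 alone, 0 relative to the median gene, 1 far from dense bins and 0 to 13 with 1 section left out. Intermediate against low-proliferation bins gave 39 to 56 calls (55) with 1 section left out. The share of bins touching a dense bin differed by -51.9 to -44.7 points with 1 section left out, where the smallest exact permutation p is 0.0571, and by -17.3 points with class limits of 5 to 49 (exact permutation p = 0.0857). The share of bins with only intermediate neighbours differed by 2.75 points (exact permutation p = 0.0857), by 11.9 points with bins of 720 pixels (exact permutation p = 0.0286), and by 1.07 to 3.68 points with 1 section left out. Lag3 turned to 0.099 in intermediate against low-proliferation bins for molecules per bin, and the density of Rrm2 to -1.2 far from dense bins. Same-numbered sections correlated at -0.62 to 0.59 in their deviations from the group means, so the numbers share only a name. The replicate number as a block gave 5, 1, 4 and 0 calls for with against without CpG-STAT3ASO, CpG-STAT3ASO against PBS, the combination against anti-PD1 and the combination against CpG-STAT3ASO, 20 for steps, 4 for density and 1 for clumps, each within 1.5 times. The causes were not tested. Depth limits the rarest genes: in anti-PD1 replicate 2 the class held 156772 gene molecules.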
